A study of Saccharomyces cerevisiae with 2 samples.

Results

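The letter-suffixed ORFs of *Saccharomyces cerevisiae* are open reading frames whose systematic name ends in a hyphen and a letter, such as YAL064W-B. ORFs of this yeast are named by chromosome, arm and position, and an ORF recognized between existing entries takes the name of a neighbour with a letter added. The table of read densities held 289 such nuclear ORFs. Cytosolic and mitochondrial ribosomal protein genes (12) and 5 further genes were left out by name (YDR363W-A, YHR001W-A, YML081C-A, YDR322C-A and YIL009C-A), which left 272 members of 5775 nuclear ORFs. In all, 9633 transcripts were listed. 1 culture each of *trf4*∆ and *xrn1*∆ *trf4*∆ was sequenced as total RNA depleted of rRNA. Both strains were BY4741 derivatives grown in YPD to exponential phase without synchronization, and both lacked *TRF4*, so that the contrast is the loss of *XRN1* in a *trf4*∆ background. With 1 library per strain there is no replicate check, and no p-value is given.

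The label of small and late-annotated ORFs held only in part. The members had a median annotated span of 219 nt, from 51 nt in YJR151W-A to 1593 nt in FCY22, a putative purine-cytosine permease, and 52 members were longer than 300 nt. The other nuclear ORFs had a median of 1269 nt, and 68 of them were no longer than 300 nt. A gene name was recorded for 122 members, and 150 had none. Small ORFs were passed over in early annotation because chance open frames of that size are common, and many were recognized later from related fungi, transcript tags or mass spectrometry. Those with a known role are mostly small subunits or assembly factors of larger complexes, and others are short membrane or cell wall proteins.

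Xrn1p is the major cytoplasmic 5′–3′ exoribonuclease and degrades mRNAs after their caps are removed. Trf4p is the poly(A) polymerase of TRAMP, a nuclear complex that marks RNAs for the exosome. Densities below are normalized reads per nucleotide, and a log2 ratio is that of *xrn1*∆ *trf4*∆ over *trf4*∆ density. XRN1 itself gave 7272 reads in *trf4*∆ and 111 in *xrn1*∆ *trf4*∆, and TRF4 (PAP2 in the annotation) gave 0 and 1. The ORF reads summed to 7455598 in *trf4*∆ and 12121664 in *xrn1*∆ *trf4*∆, and 1 read in *xrn1*∆ *trf4*∆ was worth 0.626 of a read in *trf4*∆. The ORFs as a whole were not centred on 0, with a median log2 ratio of 0.78 (95% order-statistic interval 0.75 to 0.81, n = 5638), so member values are read against this median.

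Of the ORF reads, the members together took 1.28% in *trf4*∆ (95620 reads) and 1.38% in *xrn1*∆ *trf4*∆ (167778 reads). 20 members were above the 90th percentile of ORF densities in *trf4*∆ and 83 were below the 10th percentile. The median member density was 0.127 in *trf4*∆ and 0.235 in *xrn1*∆ *trf4*∆, against 0.249 and 0.480 over all nuclear ORFs. The median for members with a gene name was 0.358 in *trf4*∆ and 0.733 in *xrn1*∆ *trf4*∆. Members without one had 0.0476 and 0.0994, so that the low levels lay on the unnamed side. The other nuclear ORFs of at most 300 nt had a median *trf4*∆ density of 0.539. The median member was covered by 31 and 96.5 reads, respectively, which limits the precision of single ratios.

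**Figure D1:**
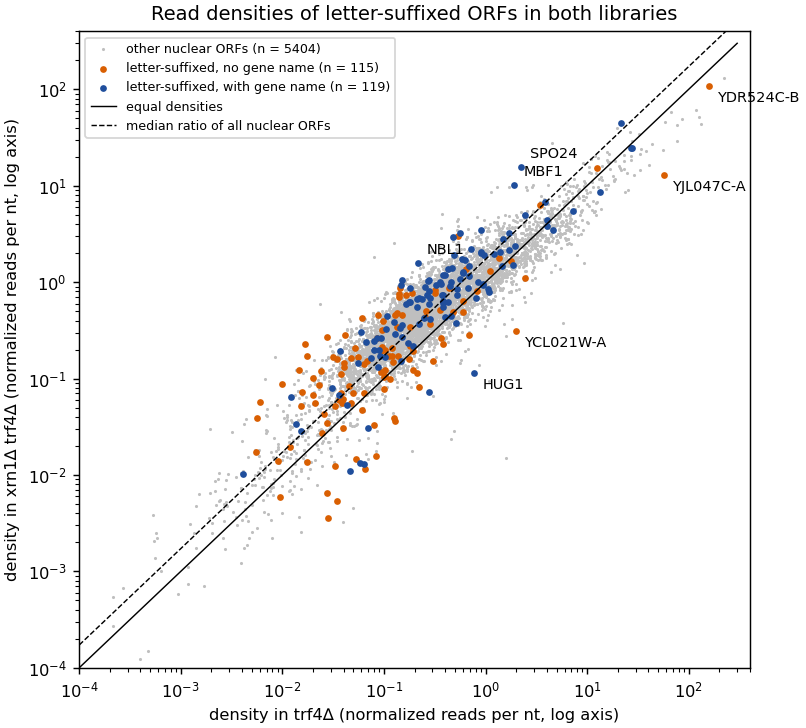
Density of each nuclear ORF in *trf4*∆ (horizontal, log axis) and *xrn1*∆ *trf4*∆ (vertical, log axis), for ORFs above 0 in both libraries. Members with a gene name (blue, 119) sit mostly within the cloud of other ORFs (grey, 5404), those without one (orange, 115) spread to low densities, and YDR524C-B is near the top of both axes.

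One unnamed member, YDR524C-B, held 33.3% of the *trf4*∆ reads and 20.7% of the *xrn1*∆ *trf4*∆ reads of all members. Its density was 158 in *trf4*∆ and 108 in *xrn1*∆ *trf4*∆ (31857 and 34766 reads, log2 ratio -0.55, 95% interval -0.57 to -0.53). Intervals of single ORFs are exact Clopper-Pearson intervals of the reads, which cover counting error only, since reads without molecular identifiers are not independent molecules. In each library 1 nuclear ORF had a higher density. The annotation records that its tagged protein localizes to the endoplasmic reticulum and that it has a duplicate, YCL048W-A. That duplicate was at a density of 0.212 and 0.115 (51 and 44 reads, log2 ratio -0.89). Both copies thus had less signal in *xrn1*∆ *trf4*∆ on the deposited scale, the duplicate at a far lower level. The ORF of YDR524C-B at R64 chrIV:1489598-1489798 (minus strand) is printed because it is the most abundant of the members, with its start and stop codons in capitals, and its bases were 54.2% G or C, against a median of 39.5% over the members.
YDR524C-B: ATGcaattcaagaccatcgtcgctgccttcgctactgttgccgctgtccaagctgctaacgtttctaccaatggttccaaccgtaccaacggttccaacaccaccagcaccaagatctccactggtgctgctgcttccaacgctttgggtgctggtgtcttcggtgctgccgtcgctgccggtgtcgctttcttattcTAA

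The next densities in *trf4*∆ belonged to surface and membrane proteins and to one ORF that shares a snoRNA gene. YJL047C-A, described with the overlaps, was at 56.9 in *trf4*∆. CWP2, a mannoprotein of the cell wall, was at 27.9 in *trf4*∆ and 24.4 in *xrn1*∆ *trf4*∆ (log2 ratio -0.20). PMP1, a small regulator of the plasma membrane H+-ATPase, was at 27.0 and 24.6 (log2 ratio -0.14), and its relative PMP2 was at 13.3 and 8.70 (log2 ratio -0.62). CCW14, a cell wall glycoprotein, was at 7.29 and 5.43 (log2 ratio -0.42). These 4 were all below the ORF median ratio. NCW1, another cell wall protein, went the other way, from 21.4 to 45.0 (5466 and 18340 reads, log2 ratio 1.07, 95% interval 1.03 to 1.12). YCR024C-B, an unnamed ORF that begins 79 nt downstream of PMP1 on the same strand, was at 12.4 and 15.1 (log2 ratio 0.28). The 8 members with the most reads in *trf4*∆, YDR524C-B and YJL047C-A among them, held 70.8% of the member reads in that library.

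The ratio of a typical member was close to that of a typical ORF, but members were spread more widely. Over 234 members above 0 in both libraries the median log2 ratio was 0.93 (95% interval 0.74 to 1.10). Of these, 183 (78.2%) had the higher density in *xrn1*∆ *trf4*∆, against 82.0% of nuclear ORFs. Among the 206 members with more than 3 reads in both libraries, 95 were at least 2-fold higher in *xrn1*∆ *trf4*∆, or 46.1%, against a background of 40.1% of 5517 nuclear ORFs. 17 members were at least 2-fold lower, or 8.25%, against 2.43% of nuclear ORFs. Relative to the ORF median, 37 members (18.0%) were at least 2-fold above it and 35 (17.0%) at least 2-fold below it, against 10.5% and 12.1% of nuclear ORFs. Low counts widen such shares. In ORFs with at least 30 reads in each library, 61 of 133 members (45.9%) were at least 2-fold higher, against 39.6% of 5204 nuclear ORFs, and 7 (5.26%) were at least 2-fold lower, against 2.23%. 3 of these 7 overlap a tRNA or snoRNA gene.

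Named and unnamed members differed in level more than in ratio. The median log2 ratio was 1.07 (95% interval 0.91 to 1.24) in named members and 0.72 (0.32 to 0.99) in unnamed ones, and those intervals overlapped. Of the members with more than 3 reads in both libraries, 62 of 116 named (53.4%) and 33 of 90 unnamed ones (36.7%) were at least 2-fold higher, against 40.1% of nuclear ORFs, so that the unnamed share was near the background. 6 (5.17%) and 11 (12.2%) were at least 2-fold lower, against 2.43%. The other ORFs of at most 300 nt had a median of 0.99 (0.74 to 1.30, n = 62), close to that of the members. By length, the medians were 0.91 in members of at most 150 nt (41), 0.99 in those between that and 300 nt (142) and 0.74 in longer ones (48), with overlapping intervals.

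The comparison with ORFs of like level depended on the level. All nuclear ORFs above 0 in both libraries were split into 5 equal classes of their mean log2 density. In the lowest class, which held 85 members, the member median was 0.91, or 0.09 below that of the other ORFs. In classes 3, 4 and 5 the member medians were 1.34, 0.99 and 0.56, and those of the other ORFs 0.94, 0.67 and 0.12. The intervals overlapped in all 5 classes, and in the highest the member interval began at 0.14 and that of the other ORFs ended at 0.19. There 25 of 37 members were above the median of the other ORFs. In every class the comparison group kept the ribosomal protein genes, which were left out of the members, and this difference was not adjusted for.

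**Figure D2:**
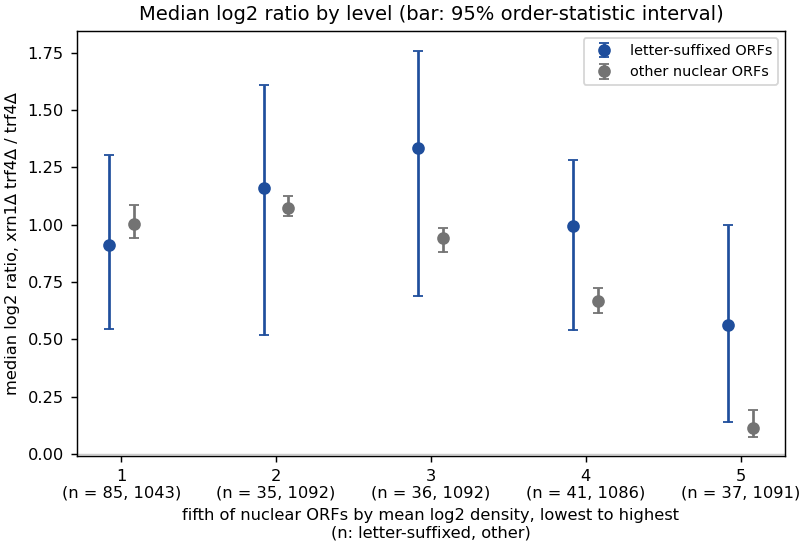
Median log2 ratio of *xrn1*∆ *trf4*∆ over *trf4*∆ (vertical) in 5 equal classes of nuclear ORFs by mean log2 density (horizontal), for members (blue) and other nuclear ORFs (grey), with 95% order-statistic intervals. The other ORFs are at 0.12 in the highest class, where the members are at 0.56.

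Of the 122 members with a gene name, 67 were set in 6 lists by role. The lists were written with earlier results of these data known and are described without a test. They do not hold every member of known role. For the 55 named members outside the lists, the middle value was 0.91 on the log2 scale (0.49 to 1.15, 53 with a ratio). With more than 3 reads in both libraries, 22 of 51 such members (43.1%) were at least 2-fold higher, near the 40.1% of nuclear ORFs. Chromosome segregation genes had the highest median, 1.66 over 9 members (95% interval 1.28 to 2.67), and 8 of 9 were at least 2-fold higher in *xrn1*∆ *trf4*∆, against 40.1% of nuclear ORFs. NBL1, a subunit of the chromosomal passenger complex that carries Aurora kinase, had 62 and 725 reads (densities 0.215 and 1.57, log2 ratio 2.87, 95% interval 2.50 to 3.27). DAD4 and DAD3, subunits of the ring-forming Dam1 complex that couples kinetochores to microtubules, were at 2.67 and 1.76 on the log2 scale, and HSK3 of the same complex was at 1.28. MHF1, MHF2 and WIP1, small histone-fold proteins of the centromere, were at 1.57, 1.66 and 1.53. The lowest of the list was DID2 at 0.55, which acts in endosomal sorting and not in chromosome segregation.

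MEI4 of this list is a meiotic recombination factor. It had 16 and 136 reads over a span of 1315 nt (densities 0.0122 and 0.0648, log2 ratio 2.41, 95% interval 1.66 to 3.26). HED1, an inhibitor of Rad51p in meiosis, had 2 and 8 reads. SAE3, a meiotic partner of Dmc1p, had 0 in both libraries, which allows up to 3 reads, or a density of 0.00829 in *trf4*∆.

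Factors for assembly of the respiratory chain and other mitochondrial enzymes had a median of 1.49 over 13 members (0.94 to 1.62). All 13 had the higher density in *xrn1*∆ *trf4*∆, against 82.0% of nuclear ORFs, 11 were above the ORF median, and 10 (76.9%) were at least 2-fold higher, against 40.1%. COA2, which acts in assembly of cytochrome c oxidase, went from 99 to 966 reads (densities 0.478 and 2.92, log2 ratio 2.61, 95% interval 2.31 to 2.92). CMC4 and CMC2, twin-CX9C proteins of the intermembrane space, were at 1.80 and 1.61, and ATP19, subunit k of the ATP synthase, was at 1.62. COA6 and COX26, at 0.54 and 0.73, were the 2 below the ORF median. ISD11, which is needed for iron-sulfur cluster synthesis, was at 1.41.

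The mitochondrial import list had a median of 1.08 over 8 members (0.25 to 1.90), and 6 of 8 were at least 2-fold higher, against 40.1% of nuclear ORFs. The small Tim chaperones, which carry membrane proteins across the intermembrane space, were not alike. TIM10 was at 1.64 (202 and 1005 reads), TIM9, its partner in one complex, at 1.07 (159 and 533 reads), and TIM8 at 0.36 (178 and 364 reads). The interval of TIM10, 1.42 to 1.86, did not overlap that of TIM9, 0.81 to 1.33. TOM5 of the outer membrane translocase was at 1.57, SOM1 of the inner membrane peptidase at 1.90, and MIC10, which shapes cristae, at 0.25.

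Members acting in transcription, RNA and translation had a median of 1.38 over 17 members (0.94 to 1.64), and 10 of the 16 with enough reads (62.5%) were at least 2-fold higher, against 40.1% of nuclear ORFs. KTI11, which acts in diphthamide synthesis and in modification of tRNA wobble bases, was the highest, with 139 and 1290 reads (densities 0.558 and 3.24, log2 ratio 2.54). HTL1, a subunit of the RSC chromatin remodeller, went from 14 to 114 reads (2.35), and MAK31, a subunit of an N-terminal acetyltransferase and so not an RNA factor, from 73 to 440 (1.92). The splicing factors YSF3, SMX2, LSM3 and HUB1 were at 1.62, 1.56, 0.95 and 0.94, and SUS1, a subunit shared by SAGA and the mRNA export complex TREX-2, at 1.64. The paralogs LSO1 and LSO2, which bind ribosomes, differed, with 13 and 5 reads for LSO1 (-2.05, 95% interval -3.89 to -0.47) and 69 and 190 for LSO2 (0.79, 0.38 to 1.21). TMA7, also found with ribosomes, was at -0.43.

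The list of ER, Golgi and other membrane proteins was the most abundant, with a median *trf4*∆ density of 1.40. Its median ratio was lower, 0.56 over 15 members (-0.24 to 1.08). It became -0.38 once the median ORF densities of the libraries were set equal. That scaling lowered the other lists alike, to 0.72 (chromosome segregation), 0.55 (respiratory assembly), 0.44 (transcription and RNA), 0.14 (import) and -0.48 (stress). 6 of the 15 ER, Golgi and membrane members had the lower density in *xrn1*∆ *trf4*∆ on the deposited scale. Besides PMP1 and PMP2 these were SFT1, a Golgi SNARE, at -0.32, VMA9, a subunit of the vacuolar ATPase, at -0.24, and SBH1 and SBH2, the β subunits of the ER translocons around Sec61p and Ssh1p, at -0.29 and -0.07. SPC1, a signal peptidase subunit, was at 1.97 (141 and 880 reads), YOS1 of ER to Golgi transport at 1.42 and ERI1 of GPI anchor synthesis at 1.08. BIL1, at 2.80 (35 and 390 reads), stood in this list but is known as an actin regulator that binds Bud6p. Without it the median was 0.45.

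**Figure D3:**
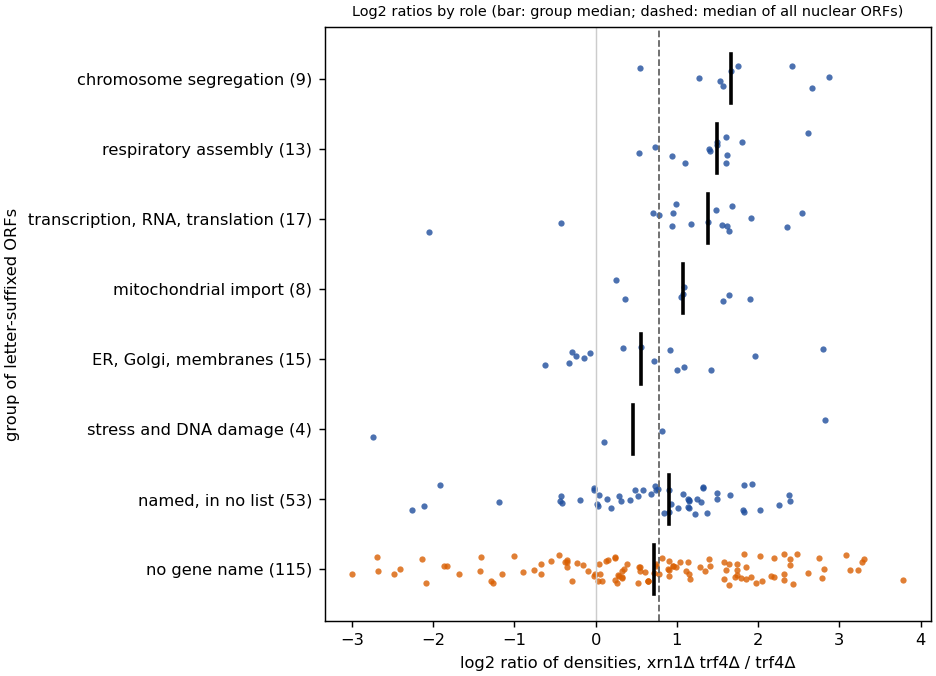
Log2 ratio of *xrn1*∆ *trf4*∆ over *trf4*∆ (horizontal) of each member above 0 in both libraries, by role list or by the lack of a gene name (rows, with the number plotted). Black bars are group medians, from 1.66 for chromosome segregation to 0.56 for ER, Golgi and membrane proteins in the lists of at least 8, and the dashed line is the median of all nuclear ORFs at 0.78.

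The 5 stress and DNA damage genes were widely spread. SPO24, a small protein of sporulation, had densities of 2.22 in *trf4*∆ and 15.7 in *xrn1*∆ *trf4*∆ (452 and 5117 reads, 7.09-fold, log2 ratio 2.83, 95% interval 2.69 to 2.97). HUG1, a small inhibitor of ribonucleotide reductase that is induced by DNA damage, had densities of 0.768 and 0.115 (159 and 38 reads, 6.68-fold lower, log2 ratio -2.74, 95% interval -3.29 to -2.22). HOR7 and DDR2, which respond to osmotic and other stress, were at 0.82 and 0.11, and TAR1, antisense to the rRNA genes, was at 0 in both libraries. Both ORFs of these extremes are short and wholly unique in the genome, and they are printed with start and stop codons in capitals as the members with the largest changes among well-covered intronless ORFs, SPO24 from R64 chrXVI:645950-646153 (plus strand) and HUG1 from chrXIII:158760-158966 (plus strand).
SPO24: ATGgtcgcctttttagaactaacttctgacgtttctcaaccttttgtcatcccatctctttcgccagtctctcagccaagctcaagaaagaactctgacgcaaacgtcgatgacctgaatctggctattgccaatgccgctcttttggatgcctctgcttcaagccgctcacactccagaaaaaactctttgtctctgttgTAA
HUG1: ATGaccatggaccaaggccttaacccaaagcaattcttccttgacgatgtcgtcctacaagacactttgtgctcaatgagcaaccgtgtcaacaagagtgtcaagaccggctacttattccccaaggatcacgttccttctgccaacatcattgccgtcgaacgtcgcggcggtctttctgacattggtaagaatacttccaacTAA

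Of the 133 members with at least 30 reads in each library, the 10 highest ratios ran from 2.26 to 2.87. Besides NBL1, SPO24, BIL1, DAD4, COA2 and KTI11 these were MBF1, SLO1, YMR001C-A and YKL068W-A. MBF1, a transcriptional coactivator, had the most reads of the 10, 877 and 7361 (densities 1.92 and 10.1, log2 ratio 2.39, 95% interval 2.29 to 2.50). SLO1, which interacts with the GTPase Arl3p, had 47 and 360 reads (2.26). YKL068W-A, recorded by homology to another fungus, had 127 and 1134 reads (2.48), and YMR001C-A had 33 and 322 (2.61). The lower bound of every one of the 10 was above the ORF median. KTI11 is printed from R64 chrII:89978-90226 (plus strand) with start and stop codons in capitals, as the highest of the RNA list with over 100 reads in each library.
KTI11: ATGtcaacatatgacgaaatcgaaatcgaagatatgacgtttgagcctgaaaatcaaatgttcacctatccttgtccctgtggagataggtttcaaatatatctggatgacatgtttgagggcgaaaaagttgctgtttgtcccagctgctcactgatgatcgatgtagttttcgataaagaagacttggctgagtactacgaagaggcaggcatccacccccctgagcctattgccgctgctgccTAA

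The 10 lowest of the 133 ran from -2.74 to -0.62, and 7 of them were at least 2-fold lower in *xrn1*∆ *trf4*∆. After HUG1 came YCL021W-A, with 757 and 187 reads (log2 ratio -2.69, 95% interval -2.93 to -2.46), YJL047C-A with 7678 and 2781 reads (-2.14), and FCY22 with 92 and 34 reads (-2.11). FCY21, which lies 418 nt upstream of FCY22 on the same strand and is its close relative, had 910 and 391 reads (-1.89). YLR342W-A, at -1.29, lies between FKS1, a glucan synthase gene at -0.87, and GAS2 at -1.16, all on one strand. YCL048W-A, YJL077W-B and PMP2 were at -0.89, -0.75 and -0.62, and YOR072W-B and YNL042W-B overlap tRNA genes.

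**Figure D4:**
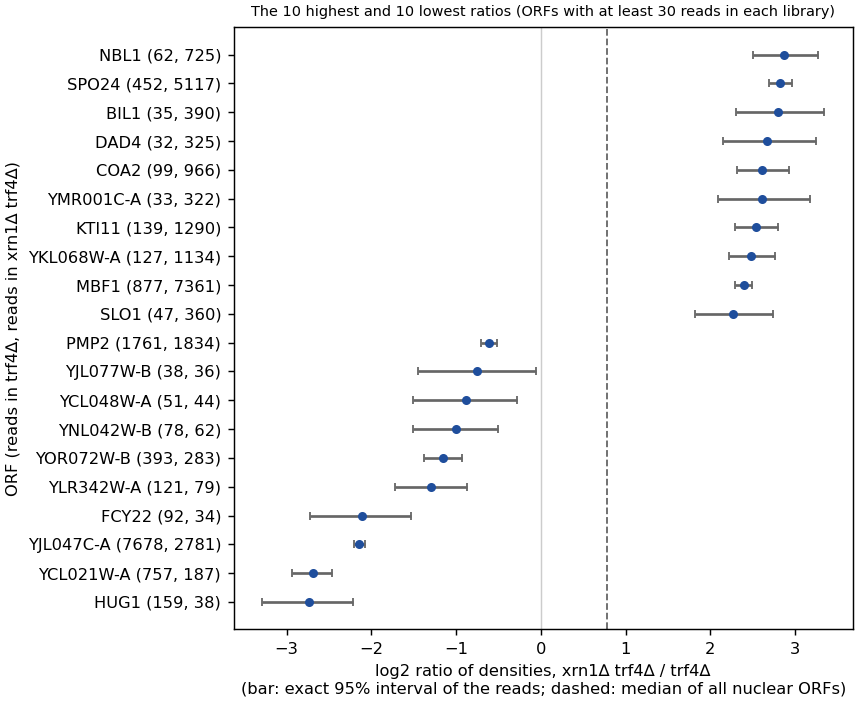
Log2 ratio of *xrn1*∆ *trf4*∆ over *trf4*∆ (horizontal) of the 10 highest and 10 lowest members with at least 30 reads in each library, with the reads of both libraries beside each name. Bars are exact 95% intervals of the reads, and the groups lie on both sides of the ORF median of 0.78 (dashed).

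Few members overlapped the annotated span of another gene. Only annotated gene spans were compared, so transcripts that run past the span of a neighbouring gene were not part of this count. By the R64 annotation, 248 members overlapped no gene, 15 overlapped a gene on the opposite strand and 6 a gene on the same strand. Of those 6, YJL047C-A overlaps the box C/D snoRNA gene SNR60 by 49 nt, YOR072W-B the proline tRNA gene SUF11 by 83 nt and YNL042W-B another proline tRNA gene by 84 nt. snR60 itself was at densities of 67.6 and 17.1 (log2 ratio -1.98), next to 56.9 and 12.9 (-2.14) for YJL047C-A. At a length of 102 nt, that of SUF11, the table's entry tP(UGG)O2 came to 393 and 283 reads, the numbers recovered for YOR072W-B. The values of YJL047C-A and YOR072W-B cannot be told apart from those of the small RNAs. For YNL042W-B no value of its tRNA gene was compared, so the share of its reads from the tRNA is not known. Both shared stretches are shown in capitals, YJL047C-A at R64 chrX:349044-349178 (minus strand) with SNR60 and YOR072W-B at chrXV:464469-464630 (plus strand) with SUF11.
YJL047C-A: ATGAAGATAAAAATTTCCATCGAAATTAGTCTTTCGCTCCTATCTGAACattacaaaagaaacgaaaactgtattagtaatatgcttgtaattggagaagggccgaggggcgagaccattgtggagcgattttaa
YOR072W-B: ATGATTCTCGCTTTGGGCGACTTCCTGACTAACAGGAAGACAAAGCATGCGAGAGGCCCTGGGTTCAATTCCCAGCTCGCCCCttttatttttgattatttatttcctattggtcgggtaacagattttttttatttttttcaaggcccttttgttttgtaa

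Members opposite another gene were counted apart from it. ADF1, a transcriptional repressor, lies wholly within FYV5 on the opposite strand and had 19 and 79 reads, against 58 and 78 for the longer FYV5. Its log2 ratio was 1.38 (95% interval 0.64 to 2.19) and that of FYV5 -0.25. NAG1, a gene of cell wall biogenesis wholly within IMO32, had 250 and 295 reads (-0.44), while IMO32 had 496 and 1509 (0.93). AUA1, described as acting in ammonia regulation of amino acid transport, had 20 and 14 reads (-1.19, 95% interval -2.29 to -0.13) although 167 of its 285 nt lie opposite WWM1, which had 2894 and 5302 reads (0.20). BUD25 had 42 and 83 reads, and HEM14, opposite 489 nt of it, 146 and 140. Relative to the ORF median, ADF1 was above it and FYV5 below, while NAG1 was below it and IMO32 above. AUA1 is printed from R64 chrVI:114990-115274 (plus strand) with the stretch opposite WWM1 in capitals, because over that stretch a count blind to strand would have shown the reads of WWM1.
AUA1: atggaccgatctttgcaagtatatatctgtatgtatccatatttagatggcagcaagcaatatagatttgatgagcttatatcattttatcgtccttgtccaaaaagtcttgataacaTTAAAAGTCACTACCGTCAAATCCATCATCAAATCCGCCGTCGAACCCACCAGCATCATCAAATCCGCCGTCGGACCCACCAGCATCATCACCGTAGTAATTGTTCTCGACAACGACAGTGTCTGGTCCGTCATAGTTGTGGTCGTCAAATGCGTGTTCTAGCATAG

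**Figure D5:**
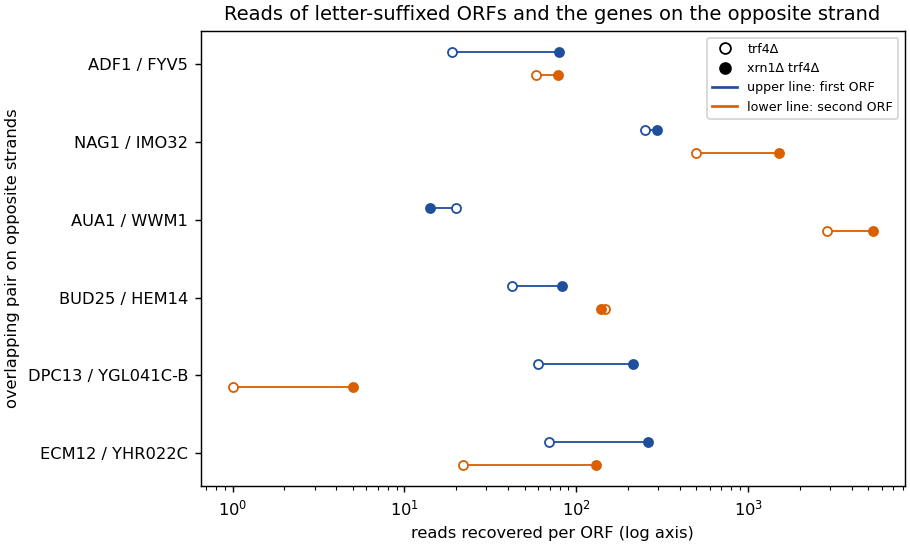
Reads recovered (horizontal, log axis) in *trf4*∆ (open) and *xrn1*∆ *trf4*∆ (filled) for 6 letter-suffixed ORFs (blue) and the genes they overlap on the opposite strand (orange). AUA1 stays at 20 and 14 reads opposite WWM1 at 2894 and 5302, and ADF1 and FYV5 meet at 79 and 78 reads in *xrn1*∆ *trf4*∆.

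NHP6B, an HMG box chromatin protein, overlaps YBR090C on the same strand by 157 nt. Its density was 1.21 in *trf4*∆ and 1.98 in *xrn1*∆ *trf4*∆ (log2 ratio 0.71), close to the 0.67 of YBR090C, and it gave no whole reads at its annotated length, so no interval is given. 3 members, YLR466C-B, YOL013W-A and YPR108W-A, are not in the R64 annotation and had densities only.

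29 members were at 0 in both libraries. 13 of them had no 50-nt start position that is unique in the genome, and these were all the members of that kind. They include TAR1 and 5 others that overlap rRNA genes, PAU9, and fragments near chromosome ends. Since only uniquely mapped reads were kept, their level was not measured. 11 of the 29 had at least 90% unique positions, among them SAE3 and YDR524W-C, an ORF of 90 nt found by serial analysis of gene expression that lies beside YDR524C-B on the other strand. Unique here means without an exact copy. Alignment allowed 3 mismatches, so reads with a near copy elsewhere could also have been dropped. 7 members were at 0 in *trf4*∆ only. The largest count among these was in YJL052C-A, with 12 reads in *xrn1*∆ *trf4*∆. On the deposited scale that is 2.50-fold the 3 reads that a count of 0 allows in *trf4*∆. The counting error of the 12 reads is not included, so 2.50 is not a lower bound. 2 members were at 0 in *xrn1*∆ *trf4*∆ only, with 1 read each in *trf4*∆.

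The annotation notes how many of the unnamed members had been found. The 12 found by sequence comparison gave a median log2 ratio of 1.83 (95% interval 0.78 to 2.43, 10 with a ratio), and 8 of these 10 were at least 2-fold higher, against 40.1% of nuclear ORFs. 29 found by fungal homology and RT-PCR had a median of 1.14 (0.52 to 1.65, 22 with a ratio), and 30 found by gene trapping 0.72 (-0.75 to 1.85, 17 with a ratio). The median was 0.43 (-0.68 to 2.02, 16 with a ratio) in 18 found by expression profiling and mass spectrometry. In 57 with no method noted it was 0.32 (-0.10 to 0.74, 47 with a ratio). 4 further ORFs were found by serial analysis of gene expression. Of those with more than 3 reads in both libraries, 9 of 17 found by RT-PCR, 4 of 12 by gene trapping, 3 of 13 by mass spectrometry, 2 of 3 by serial analysis and 7 of 35 with no method noted were at least 2-fold higher. The order of levels was not the same. The median *trf4*∆ density was 0.158 in ORFs found by comparison, 0.10005 in those of mass spectrometry, 0.0933 in those with no method, and 0.0381 and 0.0219 in those of RT-PCR and gene trapping. 10 of the 30 gene-trap ORFs were at 0 in both libraries, but 4 of these 10 had no unique start position and 2 had at least 90% unique ones, and 19 of the 30 had at least 90%, so the low median is in part a level that was not measured. YBR085C-A, whose tagged protein is recorded in cytoplasm and nucleus, was the fourth most abundant unnamed member, at 3.42 and 6.32 (log2 ratio 0.89). YJR151W-A is the shortest member and is printed whole from R64 chrX:717580-717630 (plus strand), with start and stop codons in capitals, because only 2 start positions of a 50-nt read fit within it. It had 2 and 5 reads.
YJR151W-A: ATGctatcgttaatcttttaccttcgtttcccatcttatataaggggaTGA

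Among the members, 27 had an intron, 24 of them with a gene name. Their median log2 ratio was 1.30 (95% interval 0.42 to 1.61, 25 with a ratio), against 0.43 (0.31 to 0.56, n = 237) in other ORFs with an intron, and the intervals overlapped. Their median density in *trf4*∆ was 0.215, and that of the others 0.572. The introns within their coding sequences had a median of 94 nt, against 152 nt in other ORFs. The other ORFs still included the ribosomal protein genes, which were left out of the members, so these contrasts are not between like groups. GTATGT, searched at the first bases of each intron on the strand of the gene, opened 22 of 30 member introns (73.3%) and 183 of 251 others (72.9%). MOB2, a partner of the kinase Cbk1p, was at 1.65 (103 and 516 reads), AIM11 at 1.82 (81 and 458), and LSB3, an actin patch protein, at 0.02 (2122 and 3425). RIM1, a mitochondrial single-stranded DNA binding protein, was at -0.02 (465 and 731). Spans include introns, so spliced and unspliced reads were not separated. NBL1 is printed from R64 chrVIII:498571-498859 (minus strand) with its intron in capitals, as the intron-bearing member with the highest ratio.
NBL1: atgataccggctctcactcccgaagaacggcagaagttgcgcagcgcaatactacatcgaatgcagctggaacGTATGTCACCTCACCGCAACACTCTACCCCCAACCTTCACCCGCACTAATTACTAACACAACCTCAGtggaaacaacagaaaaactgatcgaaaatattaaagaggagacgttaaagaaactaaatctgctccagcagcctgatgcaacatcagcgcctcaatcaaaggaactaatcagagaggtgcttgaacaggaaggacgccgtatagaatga

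The base at position -3 before the start codon also set named and unnamed members apart. An A at position -3, the base most favoured ahead of yeast start codons, was present in 64.8% of named and 37.4% of unnamed members, and in 61.4% of other nuclear ORFs. G and C made up a median of 40.9% of named and 37.6% of unnamed members.

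Neighbouring genes on the same strand were compared with the members. With at least 30 reads in each library for both genes and a gap of at most 1000 nt, 28 of 45 members were on the same side of the ORF median as the gene upstream, and 24 of 54 as the gene downstream. Across these pairs, which share libraries and a strand, Pearson's r of the log2 ratios was 0.34 (Spearman's rho 0.28) with the upstream gene and -0.10 (-0.15) with the downstream gene. Neighbouring pairs among the other nuclear ORFs were not computed. These counts and correlations therefore have no background and show nothing particular to the members. SPO24 at 2.83 lies 677 nt downstream of VMA13 at 0.04, and HUG1 at -2.74 lies 416 nt upstream of SML1, another inhibitor of ribonucleotide reductase, at 1.61 (412 and 2014 reads).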

How the data were processed

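Total RNA was extracted with hot phenol, depleted with RiboMinus and sequenced as 50-nt reads on a SOLiD v4 instrument, 1 library per strain. Bowtie was used by the authors for alignment with at most 3 mismatches, and only reads at unique positions were counted. Version 0.12.7 and SAMtools are named in the submitters' processing notes. The deposited values are a coverage signal, a density in reads per nucleotide that the authors scaled to all reads falling on ORFs. The annotation release and the use of strand are not given in the sources used here. Both value columns were used and 0 were left out.

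Spans, names and sequences are those of the R64 assembly and its RefSeq annotation. Density times span gave whole reads (tolerance 0.01) for 99.4% of ORFs and 268 members. An ORF overlapping any annotated gene by at least 1 nt counts as overlapping. Log2 ratios have no pseudocount and need a density above 0 in both libraries. A 2-fold count needs more than 3 reads in both. Medians have 95% order-statistic intervals, and single ORFs exact Clopper-Pearson intervals. With 1 library per strain no test was run. The functions were tested on simulated reads with 200 changed ORFs.

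The members, role lists and comparisons were chosen with earlier results of these data known. Members could be named if they were in a role list, among the 10 highest or lowest ratios with at least 30 reads in each library, among the 8 highest densities, at 0, among the 5 highest densities without a gene name, or in an overlap. HED1, LSB3, RIM1, MOB2, AIM11, YJR151W-A and the neighbours FCY21, FKS1, GAS2, VMA13 and SML1 fall outside these rules and were chosen after their values were seen. Alternatives were 3 other scalings, pseudocounts of 0.01 and 0.1, filters on density, reads, overlap and unique positions, the mean, and another comparison group. Python 3.11.15 with NumPy, SciPy, pandas and Matplotlib was used.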

Additional observations from a re-analysis of the deposited data

How the results depend on the processing

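Of 39 alternative values for the main results, 28 stayed within the interval of the median, or within 1.5 times for a count. The others mostly followed the scale. Setting the median ORF densities equal took the median log2 ratio of the members from 0.93 to -0.011, and 27 members were at least 2-fold higher and 40 at least 2-fold lower, in place of 95 and 17. With the 30% trimmed mean of ORF log2 ratios set to 0 the values were 0.15, 38 and 35. These scalings subtract 0.94 and 0.78 from every log2 ratio, so the order of the members is untouched. Pseudocounts of 0.01 and 0.1, with members at 0 kept, gave medians of 0.71 and 0.38. With 0.1, 6 members were at least 2-fold lower, and the member median minus that of the other ORFs went from 0.15 to -0.13, as low densities were drawn to 0. That difference was not stable. It was -0.00006 with a pseudocount of 0.01, 0.05 with means in place of medians and -0.056 against other ORFs of at most 300 nt. Filters on density, reads, overlap and unique positions gave differences of 0.16 to 0.19. Without the 3 members that overlap a tRNA or snoRNA gene, an alternative chosen after seeing the data, 14 were at least 2-fold lower.

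The role list medians kept their order with a pseudocount of 0.01. Without DID2 and without MAK31, both chosen after seeing the data, the chromosome segregation median was 1.71 and the RNA list median 1.28. Depth is the main limit. The median unnamed member had 9 reads in *trf4*∆, no library was repeated, and a difference between 2 cultures cannot be told apart from the loss of *XRN1*. No paired analysis was possible because there was 1 library per strain.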
